A study of Mus musculus with 8 samples.

Results

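The genes described here are the hypoxia-inducible factor (HIF) subunits Hif1a, Epas1 and Arnt, the oxygen-sensing prolyl hydroxylases Egln1 and Egln3, and the hypoxia target genes Bnip3, Ankrd37, Car9, Adm and P4ha1. They were taken by their gene symbols in the platform annotation, from probe sets with exactly 1 symbol, and where a gene had more than 1 such probe set the one with the highest mean over the 8 arrays was used. Of the 10 genes, 9 were measured by this rule, among 22180 genes measured in all. Ankrd37, an ankyrin repeat gene, is named only by a probe set that also names another gene, so it has no value here. All 9 measured genes passed the filter on low signals, a mean of at least 3.80 (log2 intensity), which kept 15086 genes for testing.

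The arrays came from hearts of male C57Bl6N mice harvested 1 week after transverse aortic constriction (TAC), which narrows the aorta and loads the left ventricle with pressure. The group labelled C4KO_TAC holds 4 heart samples with a CITED4 knockout, and the group labelled F/FCtr_TAC holds 4 floxed control samples, whose targeted allele carries recombination sites. All 8 samples, called hearts below, came from mice with TAC, so the design holds no unoperated heart. The sources used here give no age of the mice, no Cre driver and no Cre status of the controls. Whether each array holds a separate animal is not stated, and the variation behind the p-values may therefore be technical in part.

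HIF is a dimer of an oxygen-regulated alpha subunit, HIF-1 alpha (Hif1a) or HIF-2 alpha (Epas1), with the constant subunit ARNT. In the presence of oxygen the EGLN enzymes hydroxylate prolines of the alpha subunit, which is then ubiquitinated through the von Hippel-Lindau protein (Vhl) and degraded, while an asparagine hydroxylase, the factor inhibiting HIF (Hif1an), blocks its contact with the co-activators CBP and p300. In low oxygen the dimer binds DNA with the core letters ACGTG or GCGTG and activates genes of glycolysis, vessel growth, mitophagy and matrix processing. CITED4, a co-regulator without DNA binding of its own, contacts CBP and p300, and in human cells it has been reported to compete with HIF-1 alpha for p300. HIF-alpha activity is set largely by protein stability, so transcript signals of the subunits do not measure it. Hypoxia signalling in the pressure-loaded heart is known from work on vessel supply, energy metabolism and fibrosis.

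The RefSeq promoter windows (GRCm38.p6, 250 bases before to 50 after the gene start) were searched on both strands for ACGTG and GCGTG. An E-box, the run CACGTG, holds the first core on both strands. Windows were found for 9 of the 10 genes, Epas1 being without one, and 9 of 9 held at least 1 match, where 43.8% of 32851 windows of the same length hold one. ACGTG was in 7 of the 9 windows (19.6% of all windows) and GCGTG in 6 of the 9 (32.4% of all windows). The 4 windows below belong to the hydroxylase and target genes with the largest average differences between the groups, Egln1 and Adm lower and Car9 and Bnip3 higher in knockout hearts, none of them past the test. They lie at chr8:124949205-124949504 (minus strand) for Egln1, chr7:110627407-110627706 (plus strand) for Adm, chr4:43506776-43507075 (plus strand) for Car9 and chr7:138909457-138909756 (minus strand) for Bnip3. Each is written 5′ to 3′ along its gene with the matched letters in capitals (a match to the reverse strand reads CACGT or CACGC).
Egln1: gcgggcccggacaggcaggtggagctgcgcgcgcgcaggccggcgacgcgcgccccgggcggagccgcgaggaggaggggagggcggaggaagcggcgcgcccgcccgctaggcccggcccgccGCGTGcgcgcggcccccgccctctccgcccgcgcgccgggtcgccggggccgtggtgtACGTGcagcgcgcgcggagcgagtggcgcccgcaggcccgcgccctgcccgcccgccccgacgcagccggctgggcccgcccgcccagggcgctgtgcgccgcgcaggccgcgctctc
Adm: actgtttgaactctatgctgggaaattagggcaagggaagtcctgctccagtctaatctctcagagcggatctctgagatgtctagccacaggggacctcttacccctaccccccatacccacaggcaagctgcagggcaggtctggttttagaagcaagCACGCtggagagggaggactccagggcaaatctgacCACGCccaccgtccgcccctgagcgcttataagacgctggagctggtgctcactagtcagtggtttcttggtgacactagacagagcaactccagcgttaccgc
Car9: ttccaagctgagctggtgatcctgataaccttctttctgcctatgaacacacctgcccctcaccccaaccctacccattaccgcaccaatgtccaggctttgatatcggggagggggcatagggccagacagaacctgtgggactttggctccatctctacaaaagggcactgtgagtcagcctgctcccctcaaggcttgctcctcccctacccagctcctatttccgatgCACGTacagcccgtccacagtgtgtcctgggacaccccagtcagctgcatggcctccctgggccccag
Bnip3: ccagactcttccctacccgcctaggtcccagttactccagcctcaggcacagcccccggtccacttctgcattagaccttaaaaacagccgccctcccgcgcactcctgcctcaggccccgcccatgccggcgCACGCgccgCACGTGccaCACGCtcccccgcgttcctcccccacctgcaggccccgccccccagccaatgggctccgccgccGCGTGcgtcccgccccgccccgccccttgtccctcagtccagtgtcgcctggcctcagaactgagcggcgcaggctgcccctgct
In Egln1 a GCGTG match began 126 bases and an ACGTG match 68 bases before the gene start. Adm held 2 GCGTG matches and none to the other core. Car9 held a single ACGTG match, on the reverse strand, that began 18 bases before the start. Bnip3 held 5 matches at 4 separate places, 1 of them a CACGTG run. Both the pair with lower and the pair with higher averages held the core letters, as did all 9 windows, so the matches do not set the pairs apart. The genes were listed for their place in the HIF pathway, and the background windows were not matched for base composition. The shares above therefore carry no test, and a match is a description of the sequence, not evidence of binding.

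Medians of the 8 arrays ran from 4.29 to 4.33 (log2), pairwise correlations over probe sets from 0.979 to 0.988, and precision is limited by having 4 hearts per group. Cited4 signals were 4.83 to 5.26 in knockout hearts, all below the 5.76 to 6.22 of control hearts, with a limma adjusted p of 0.277. The defining genes of heart muscle were high: the mean signal of 8 ventricular cardiomyocyte markers was 11.09 to 11.39 in knockout and 11.33 to 11.44 in control hearts. Knockout replicate 2 stood apart by its atrial markers, with a mean over 4 genes of 7.72 where the other 7 hearts had 4.17 to 4.91. Knockout replicates 1 and 4 had the lowest ventricular and the highest activated fibroblast marker means of the 8 hearts. Limma called 0 of the 15086 genes at an adjusted p of 0.05 and 0 of the 9 members, a background of 0%, whereas 1697 genes had an unadjusted p under 0.05. Values on different probe sets are not compared as levels, because probes differ in their response. Differences are in log2 intensity throughout, knockout minus control, with limma's standard error.

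Among the 9 measured genes 4 averaged higher and 5 lower in knockout hearts, where 51.2% of all genes averaged higher. Their median difference was -0.035, against 0.0038 over all genes tested. An unadjusted p under 0.05 was seen in 2 members, Egln1 (lower) and Car9 (higher), where 11.2% of all genes passed that mark. The knockout and control values did not overlap in 1 member, Egln1, where 5.23% of all genes did not overlap. Knockout replicate 1 had the lowest signal of the 8 hearts in 5 of the 9 genes, Epas1, Arnt, Egln1, Egln3 and Adm, and the highest in Car9. The plot of signals by heart shows the members side by side.

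**Figure D1:**
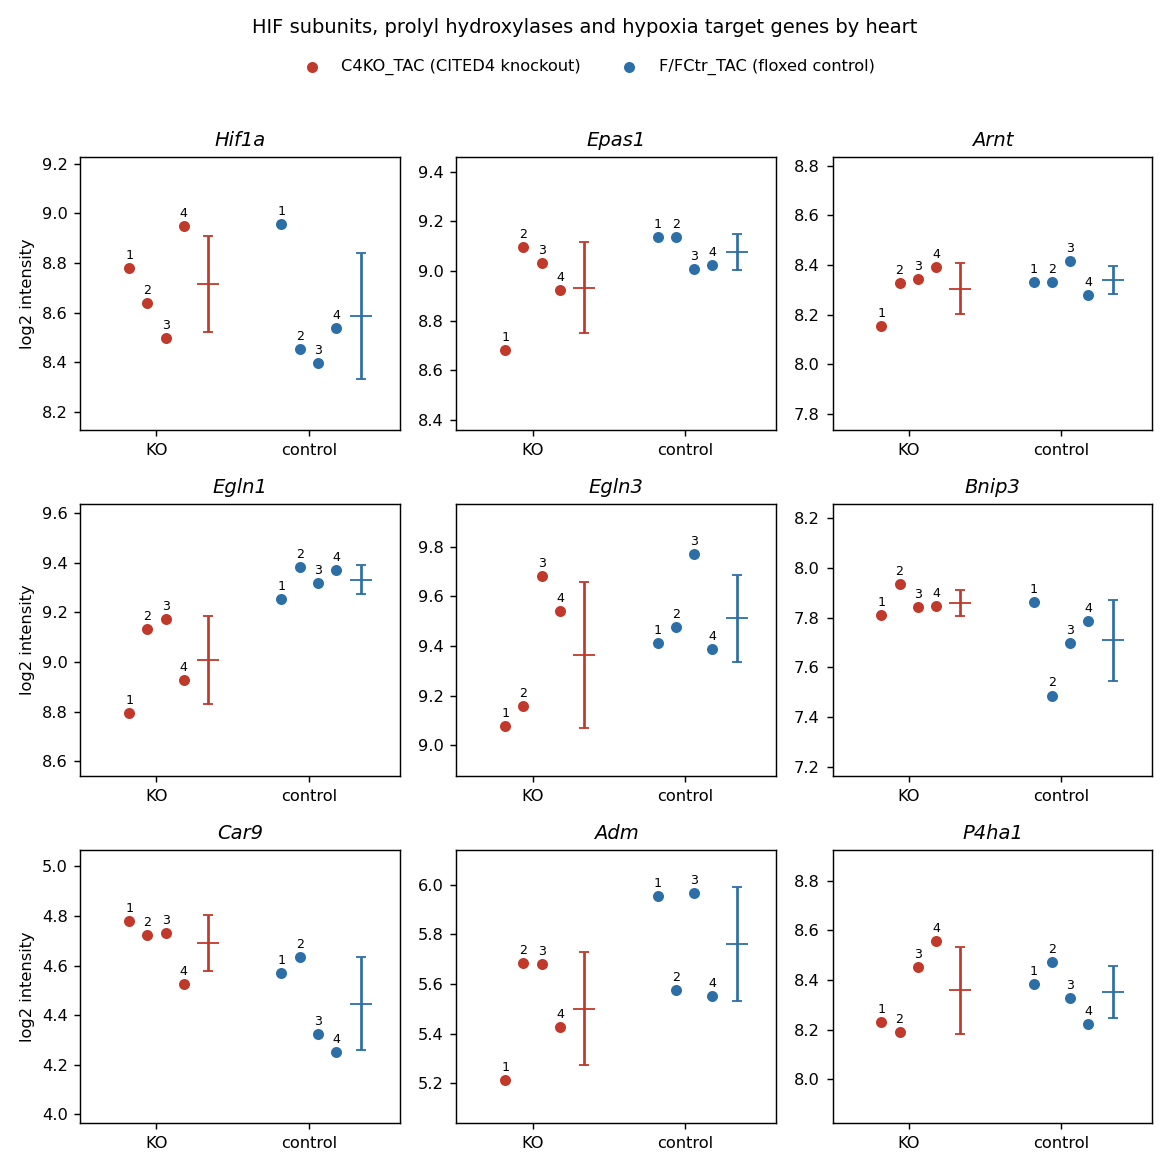
Signals of the 9 measured genes in each heart (log2 intensity, y axis), with knockout hearts in red on the left and control hearts in blue on the right of each panel, numbers giving the replicate and bars the mean ± SD (n = 4). Every panel spans the same height; Egln1 is the panel in which the groups do not overlap, and knockout replicate 1 is the lowest point in 5 panels.

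Hif1a (Entrez gene 15251), which encodes HIF-1 alpha, had signals of 8.78, 8.64, 8.50 and 8.95 in knockout replicates 1 to 4, against 8.96, 8.45, 8.40 and 8.54 in control replicates 1 to 4. Control replicate 1 and knockout replicate 4 were the highest hearts, and the groups overlapped over most of their range. The difference was 0.13 ± 0.14 (95% interval -0.18 to 0.44), with a limma adjusted p of 0.738. Single hearts moved this value: it was 0.25 without control replicate 1, 0.20 without knockout replicate 3, 0.053 without knockout replicate 4, 0.067 without control replicate 3 and 0.086 without control replicate 2. Without knockout replicates 1 and 4 together it was -0.018. A second Hif1a probe set, with a mean of 4.65, differed by 0.041. A further probe set, which also names another gene and was not used by the rule, had a mean of 4.91 and differed by 0.074.

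Epas1 (Entrez gene 13819), which encodes HIF-2 alpha and is abundant in endothelium, had signals of 8.68, 9.10, 9.03 and 8.92 in knockout hearts, against 9.14, 9.14, 9.01 and 9.02 in control hearts. The control hearts lay within a narrow band, and knockout replicate 1 was well below every other heart. The difference was -0.14 ± 0.098 (95% interval -0.36 to 0.075, limma adjusted p = 0.586), and it was -0.060 without knockout replicate 1 and -0.013 without knockout replicates 1 and 4 together.

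Arnt (Entrez gene 11863), the constant partner of both alpha subunits, had 8.15, 8.33, 8.34 and 8.39 in knockout hearts, against 8.33, 8.33, 8.41 and 8.28 in control hearts. It varied least of the 9 genes, over a range of 0.26 in the 8 hearts. Its difference was -0.035 ± 0.078 (95% interval -0.21 to 0.14, limma adjusted p = 0.887) and was 0.015 without knockout replicate 1, -0.063 without knockout replicate 4, -0.0092 without control replicate 3 and -0.055 without control replicate 4. Without knockout replicates 1 and 4 together it was -0.0028.

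Egln1 (Entrez gene 112405), which encodes PHD2, the main hydroxylase that marks HIF-alpha for degradation, was lower in all 4 knockout hearts than in any control heart. Its signals were 8.79, 9.13, 9.17 and 8.93 in knockout replicates 1 to 4, against 9.25, 9.38, 9.32 and 9.37 in control replicates 1 to 4. The knockout hearts spread over a wider range than the controls, with replicates 1 and 4 lowest. The means were 9.01 ± 0.18 in knockout and 9.33 ± 0.058 in control hearts (SD, n = 4 each). The difference was -0.32 ± 0.096 (95% interval -0.54 to -0.11), a signal of 79.9% of the control level. The two-sided exact permutation p was 0.0286, the smallest that 4 against 4 hearts allow, and limma gave an unadjusted p of 0.00692 and an adjusted p of 0.421, so Egln1 did not pass over all genes. Of all genes tested, 2.9% were lower in the knockout without overlap. The difference ran from -0.38 to -0.25 with single hearts left out and was -0.18 without knockout replicates 1 and 4 together, and -0.37 without knockout replicate 2, the heart with high atrial markers.

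Egln3 (Entrez gene 112407), which encodes PHD3, a hydroxylase that is itself induced by HIF, had 9.08, 9.16, 9.68 and 9.54 in knockout hearts, against 9.41, 9.47, 9.77 and 9.39 in control hearts. Knockout replicates 1 and 2 were the lowest of all hearts, whereas knockout replicates 3 and 4 lay within or above most controls. The difference was -0.15 ± 0.15 (95% interval -0.47 to 0.18, limma adjusted p = 0.716). It was -0.052, -0.078 and -0.25 without knockout replicates 1, 2 and 3 in turn, -0.061 without control replicate 3 and -0.093 without knockout replicates 1 and 4 together.

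The other measured regulators of HIF gave a mixed picture, with 7 of 13 higher and 6 lower, a median difference of 0.033, and 0 past the test. The lower ones include Cited4, the targeted gene. Hif1an, the asparagine hydroxylase, had 6.42, 6.69, 6.66 and 6.53 in knockout hearts, against 6.93, 6.96, 6.83 and 7.02 in control hearts. Each knockout heart lay below each control heart, with a difference of -0.36 ± 0.085 (95% interval -0.55 to -0.18, limma adjusted p = 0.421). Hif1an was lowest in knockout replicates 1 and 4. Arnt2, a paralogue of Arnt best known from the nervous system, had low signals of 4.28, 4.19, 4.36 and 4.47 in knockout hearts, against 3.87, 4.12, 3.71 and 3.90 in control hearts, where replicate 3 was under the filter value. The groups did not overlap in Arnt2, which was higher in the knockout, as were 2.33% of all genes without overlap (difference 0.43 ± 0.10, limma adjusted p = 0.421). Cul2, the scaffold of the von Hippel-Lindau ubiquitin ligase, differed by -0.16 ± 0.074 (limma adjusted p = 0.457). An unadjusted p under 0.05 was seen for 1 regulator that was higher, Arnt2 (background 5.64%), and 2 that were lower, Cited4 and Hif1an (background 5.61%). The remaining hydroxylase gene, Egln2, differed by 0.12 ± 0.11 and Vhl by 0.095 ± 0.091, and the co-activator genes Crebbp and Ep300 by -0.092 ± 0.065 and -0.087 ± 0.073. The groups did not overlap in 4 regulators, Crebbp, Cited4 and Hif1an lower and Arnt2 higher, where 2.9% and 2.33% of all genes did so. Cited4 is the gene targeted in the knockout, so its place in both counts was set by the design. The paralogues Cited1 and Cited2 differed by 0.14 ± 0.11 and 0.12 ± 0.14. The plot of differences sets the regulators other than Cited4 beside the 9 members.

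**Figure D2:**
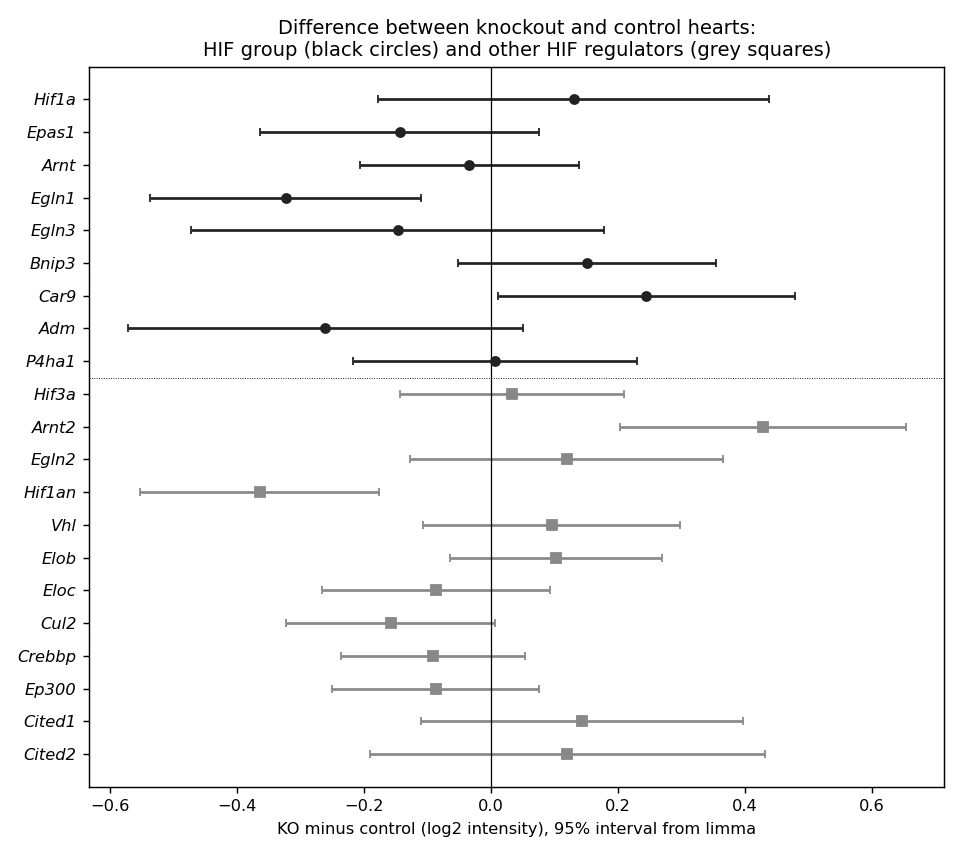
Knockout minus control difference in log2 intensity (x axis) with limma's 95% interval for the 9 members (black circles) and 12 other HIF regulators (grey squares), n = 4 hearts per group. Cited4, the targeted gene, is not shown. The intervals of Egln1 and Hif1an lie below 0 and those of Car9 and Arnt2 above 0 before adjustment; none passed after adjustment over all genes.

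Bnip3 (Entrez gene 12176), a mitochondrial outer membrane protein gene of mitophagy and a HIF target, had 7.81, 7.93, 7.84 and 7.85 in knockout hearts, against 7.86, 7.49, 7.70 and 7.79 in control hearts. The knockout hearts lay close together near the top of the control range. The difference was 0.15 ± 0.091 (95% interval -0.053 to 0.35, limma adjusted p = 0.537), and it was 0.076 without control replicate 2, the lowest heart. Among 5 measured mitophagy genes 1 was higher and 4 lower (median -0.12, 0 past the test). Pink1, a kinase that marks damaged mitochondria, differed by -0.41 ± 0.14, the receptor gene Bcl2l13 by -0.24 ± 0.094, Fkbp8 by 0.26 ± 0.14 and Phb2 by -0.10 ± 0.083. Of these, Pink1 and Bcl2l13 had an unadjusted p under 0.05 and were lower, where 5.61% of all genes were. Pink1 had 7.64, 8.31, 8.09 and 7.75 in knockout hearts, against 8.28, 8.28, 8.42 and 8.46 in control hearts. It was lowest in knockout replicates 1 and 4, as were the ventricular markers, and the part of these markers was not tested.

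Car9 (Entrez gene 230099), the membrane carbonic anhydrase used as a hypoxia marker in tumours, had low signals of 4.78, 4.72, 4.73 and 4.53 in knockout hearts, against 4.57, 4.64, 4.33 and 4.25 in control hearts. Knockout replicates 1, 2 and 3 lay above every control heart, and knockout replicate 4 lay below control replicates 1 and 2. The difference was 0.24 ± 0.11 (95% interval 0.011 to 0.48), with an unadjusted p of 0.042, an adjusted p of 0.438 by limma and an exact two-sided permutation p of 0.0857. Its other probe set, with a mean of 3.79, just under the filter, differed by 0.20. On that probe set knockout replicate 1 was the highest heart, at 4.39. Knockout replicates 2, 3 and 4 (3.56, 3.79 and 3.84) lay there within the control range of 3.45 to 3.95. Of the other membrane-bound carbonic anhydrases, 2 were tested and both were lower, Car4, which is found on capillary endothelium, by -0.34 ± 0.23 and Car15 by -0.091 ± 0.089 (median -0.21, 0 past the test).

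Adm (Entrez gene 11535), which encodes the vasodilator peptide adrenomedullin, had 5.21, 5.69, 5.68 and 5.43 in knockout hearts, against 5.96, 5.57, 5.97 and 5.55 in control hearts. Control replicates 1 and 3 were the highest hearts and knockout replicate 1 the lowest, with the other 5 hearts between them. The difference was -0.26 ± 0.14 (95% interval -0.57 to 0.050, limma adjusted p = 0.497). It was -0.17 without knockout replicate 1 and -0.080 without knockout replicates 1 and 4 together. Calcrl, the peptide's receptor, differed by 0.032 ± 0.12, and Ramp3, one of the subunits that direct the receptor's ligand choice, by -0.022 ± 0.10. The related peptide gene Adm2 differed by -0.13 ± 0.10 and the decoy receptor gene Ackr3 by -0.21 ± 0.18. Of 6 tested genes of this system 2 were higher and 4 lower (median -0.012), with 0 past the test and 0 at an unadjusted p under 0.05.

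P4ha1 (Entrez gene 18451), a catalytic subunit of the collagen prolyl 4-hydroxylase and a HIF target, had 8.23, 8.19, 8.45 and 8.56 in knockout hearts, against 8.38, 8.47, 8.33 and 8.22 in control hearts. The knockout hearts divided around the controls, replicates 1 and 2 at the low end and 3 and 4 at the high end. The difference was 0.0062 ± 0.10 (95% interval -0.22 to 0.23, limma adjusted p = 0.987), and its sign changed with single hearts left out, between -0.060 without knockout replicate 4 and 0.062 without knockout replicate 2. The other subunits of the enzyme averaged higher in the knockout, 3 of 3, with a median of 0.42 and 0 past the test. P4hb, the shared beta subunit, differed by 0.42 ± 0.14 (limma adjusted p = 0.421), with 9.95, 9.47, 9.48 and 9.94 in knockout hearts, against 9.49, 9.16, 9.13 and 9.36 in control hearts. P4ha2 differed by 0.16 ± 0.081 and P4ha3 by 1.09 ± 0.55, the P4ha3 signals being 7.45, 5.21, 4.87 and 6.76 in knockout hearts, against 5.97, 4.55, 4.54 and 4.84 in control hearts. In P4ha3 and P4hb knockout replicates 1 and 4 were the highest, as they were for the activated fibroblast markers, and the part of these markers was not tested. Whether P4ha1 differed from its partner subunits was not tested.

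Beyond these members, 33 of 41 listed hypoxia target genes were tested, 21 higher and 12 lower in knockout hearts, with a median difference of 0.035. None passed the test over all genes. With an unadjusted p under 0.05 were 5 that were higher and 0 that were lower, where 5.64% and 5.61% of all genes were. These were Stc2, Lox, Slc2a1, Ddit4 and Plod2. Stc2, which encodes the secreted glycoprotein stanniocalcin-2, had 5.59, 5.48, 5.53 and 5.62 in knockout hearts, against 5.23, 5.41, 5.15 and 5.21 in control hearts, with no overlap (difference 0.30 ± 0.080, limma adjusted p = 0.421). Slc2a1, the glucose transporter GLUT1, had 8.45, 7.81, 8.22 and 8.42 in knockout hearts, against 7.93, 7.71, 7.96 and 7.73 in control hearts (difference 0.39 ± 0.14, limma adjusted p = 0.421). Ddit4, an inhibitor of mTOR signalling, differed by 0.53 ± 0.20, with knockout replicate 2 lying below control replicates 1 and 4. Lox, which encodes lysyl oxidase of collagen cross-links, differed by 1.50 ± 0.52, and Plod2, a collagen lysyl hydroxylase gene, by 0.60 ± 0.25. Both Lox and Plod2 were highest in knockout replicates 1 and 4 and highest among the controls in replicate 1, and Slc2a1 was also highest in knockout replicates 1 and 4. Knockout replicates 1 and 4 had activated fibroblast marker means of 8.90 and 8.90, the highest of the 8 hearts, and ventricular marker means of 11.10 and 11.09, the lowest. The mean over the 33 targets was also highest in these hearts, 7.74 and 7.73, against 7.61 and 7.65 in the other knockout hearts and 7.51 to 7.62 in control hearts. The part of the markers in the count was not tested.

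Examples from the glycolytic and vascular targets lay on both sides of 0. Ldha differed by -0.0024 ± 0.076, Pdk1 by 0.019 ± 0.074, Pgk1 by 0.21 ± 0.12 and Hk2 by -0.12 ± 0.078. Vegfa, the main vessel growth factor, had 9.32, 9.78, 9.98 and 9.51 in knockout hearts, against 9.66, 10.09, 10.09 and 9.89 in control hearts (difference -0.28 ± 0.15, limma adjusted p = 0.497). Vegfa was lowest in knockout replicates 1 and 4. Its receptor gene Flt1 differed by -0.079 ± 0.066, the glycolytic gene Gapdh by 0.064 ± 0.063 and the vasoconstrictor gene Edn1 by 0.25 ± 0.15. The groups did not overlap in 3 of the 33 targets, Flt1 (lower), Gapdh and Stc2 (higher), where 2.9% of all genes were lower and 2.33% higher without overlap. Plod2 and these genes other than Stc2 are examples chosen after their values were seen.

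**Figure D3:**
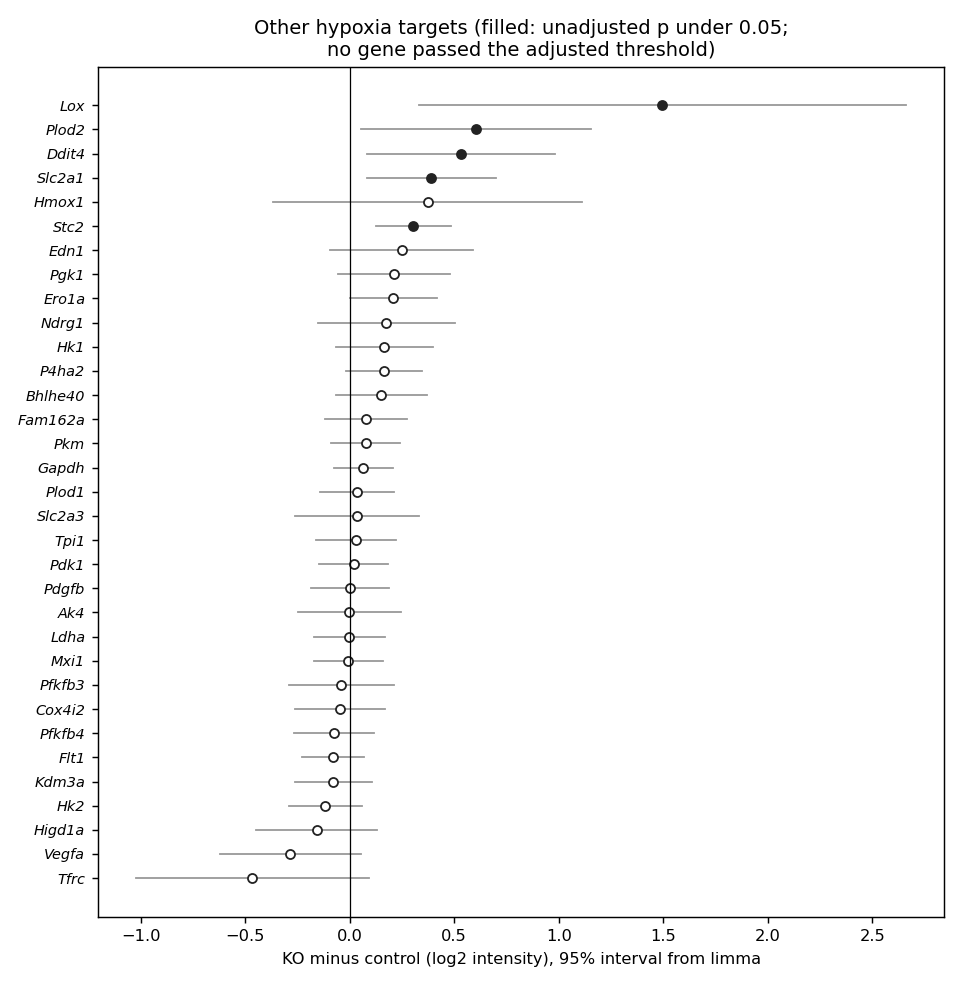
Knockout minus control difference in log2 intensity (x axis) with limma's 95% interval for 33 other hypoxia target genes, ordered by the difference, n = 4 hearts per group. Filled points mark the 5 genes at an unadjusted p under 0.05, all on the right of 0; Lox has the widest interval and the largest difference (1.50).

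Hif1a, Egln1 and Epas1 had correlations with cell type marker levels over the 8 hearts that did not pass adjustment, a comparison chosen after the data were examined. The mean signals of 7 marker lists were set against the 9 members, 63 relations in all, of which 8 had an exact permutation p under 0.05 for Pearson's r and 0 an adjusted p under 0.05. Fewer cells of a type and less RNA per cell cannot be told apart in RNA of bulk tissue. Activated fibroblast markers, 5 of 5 higher in the knockout (median 0.63), had means of 8.90, 8.26, 7.52 and 8.90 in knockout hearts, against 8.48, 7.17, 7.07 and 7.43 in control hearts. Knockout replicates 1 and 4 and control replicate 1 were the highest in these markers, and the same hearts were the highest in Hif1a. Across the 8 hearts the relation of Hif1a to these markers had Pearson r = 0.91 (exact permutation p = 0.00308, adjusted p = 0.0652) and Spearman rho = 0.88 (exact permutation p = 0.00724, adjusted p = 0.161). It was 0.91 without knockout replicates 1 and 4, the hearts farthest from the median marker level, and 0.96 after removal of each group's mean.

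Egln1 was set against the ventricular cardiomyocyte markers, of which 7 of 8 were lower in the knockout (median -0.14) and whose means were 11.10, 11.39, 11.30 and 11.09 in knockout hearts, against 11.33, 11.44, 11.39 and 11.42 in control hearts. Knockout replicates 1 and 4 were lowest in both. The relation had Pearson r = 0.93 (exact permutation p = 0.00342, adjusted p = 0.0652) and Spearman rho = 0.83 (exact permutation p = 0.0154, adjusted p = 0.161). It was 0.64 without knockout replicates 1 and 4, on which it rests in part, and 0.89 with group means removed. With activated fibroblast markers, Egln1 had the opposite sign (r = -0.85, exact permutation p = 0.00568, adjusted p = 0.0716; -0.63 without knockout replicates 1 and 4). Knockout replicates 1, 3 and 4 were below all controls in both the ventricular marker mean and Egln1. Knockout replicate 2, the heart with high atrial markers, had a ventricular marker mean within the control range and an Egln1 signal below all controls. The part of the markers in the Egln1 difference was not tested.

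Epas1 was set against the endothelial markers, of which 2 of 7 were higher and 5 lower (median -0.021), with means of 8.35, 8.82, 8.56 and 8.49 in knockout hearts, against 8.72, 8.64, 8.56 and 8.53 in control hearts. Knockout replicate 1 was the lowest heart in both. The relation had Pearson r = 0.86 (exact permutation p = 0.00414, adjusted p = 0.0652) and Spearman rho = 0.83 (exact permutation p = 0.0154, adjusted p = 0.161), and r was 0.92 without knockout replicates 1 and 2 and 0.89 with group means removed. With ventricular markers Epas1 had r = 0.80 (exact permutation p = 0.0138, adjusted p = 0.145), and 0.16 without knockout replicates 1 and 4, so this relation rests on those hearts. Whether Epas1 differed between these lists in its relation was not tested. Car9 had no such relation at an unadjusted p under 0.05 with any of the 7 lists. Bnip3 had Spearman rho = 0.83 with atrial markers (exact permutation p = 0.0154, adjusted p = 0.161), where r was 0.53 (exact permutation p = 0.13). Knockout replicate 2 was the highest heart in both Bnip3 and the atrial markers. Adm had rho = 0.79 with endothelial markers (exact permutation p = 0.0279, adjusted p = 0.195), where r was 0.65 (exact permutation p = 0.0785).

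**Figure D4:**
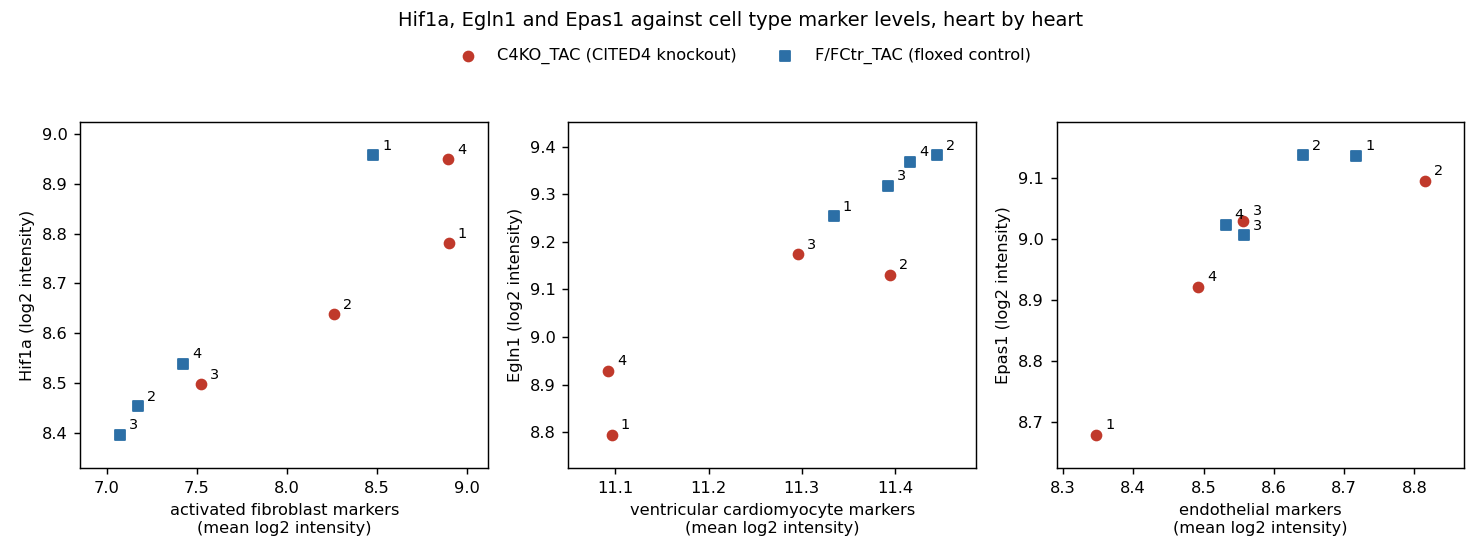
Signal of Hif1a, Egln1 and Epas1 (log2 intensity, y axes) against the mean log2 intensity of activated fibroblast, ventricular cardiomyocyte and endothelial markers (x axes) in 4 knockout hearts (red circles) and 4 control hearts (blue squares), with replicate numbers. Pearson's r over the 8 hearts was 0.91, 0.93 and 0.86 from left to right, with an adjusted p of 0.0652 in each.

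General fibroblast markers (5 of 6 higher, median 0.14) had means of 8.95 to 9.53 in knockout and 8.78 to 9.40 in control hearts, and their r with Hif1a was 0.91 (exact permutation p = 0.0036, adjusted p = 0.0652). Their r with Egln1 was -0.76 (exact permutation p = 0.026, adjusted p = 0.234), and r of Hif1a with mural cell markers was 0.75 (exact permutation p = 0.0386, adjusted p = 0.304) and 0.55 without knockout replicate 4 and control replicate 2. Mural cell markers (3 of 8 higher, 5 lower, median -0.084) lay at 8.37 to 8.64 in knockout and 8.36 to 8.57 in control hearts, and macrophage markers (5 of 7 higher, median 0.098) at 7.50 to 7.85 in knockout and 7.42 to 7.65 in control hearts. All 4 tested atrial markers averaged higher in the knockout (median 0.74), with replicate 2 far above the rest. This count and median rest largely on that heart. Atrial marker means of knockout replicates 1, 3 and 4 were 4.40, 4.20 and 4.63, within the control range of 4.17 to 4.91. In Myl4 alone of these markers the groups did not overlap. Sln, an atrial calcium pump regulator, had 9.31 in knockout replicate 2 and 2.75 to 4.98 in the other 7 hearts, 6 of them under the filter value. It passed the filter only through knockout replicate 2, and Bmp10 was under the filter. Sln and Myl4 are examples chosen after their values were seen. The labels say heart and do not name the chambers taken. A single lymphocyte marker and a single adipocyte marker passed the filter, with differences of 0.16 and 0.22, and 0 of 3 erythroid markers had a probe set with exactly 1 symbol. No marker in any list passed the test over all genes.

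Hif1a was also set against each of the 8 other measured members over the 8 hearts. Over all 8 hearts the strongest were Egln1, with r = -0.60 (exact permutation p = 0.115, adjusted p = 0.587) and rho = -0.60 (exact permutation p = 0.132), and Bnip3, with r = 0.55 (exact permutation p = 0.147, adjusted p = 0.587) and rho = 0.74 (exact permutation p = 0.0458). None of the 8 relations reached an exact permutation p of 0.05 for r, and after adjustment 0 did for r or rho. Without control replicate 1 and knockout replicate 4, the hearts farthest from the median Hif1a signal, the order of the members was different and P4ha1 changed sign: r was -0.91 for Egln3, -0.88 for Arnt, -0.88 for Egln1, -0.82 for Adm, -0.72 for Epas1, -0.63 for P4ha1, 0.56 for Car9 and 0.55 for Bnip3. With all 8 hearts r was -0.18 for Arnt and 0.19 for P4ha1, so these relations depend on those 2 hearts.

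The 2 genes most like each member were found by Pearson's r over the 8 hearts among the 15086 genes tested. They are the highest of many correlations, so high values are given by the choice and carry no test. For Hif1a they were Jag1 (0.99) and Arid5b (0.98), Jag1 encoding a Notch ligand, and for Epas1 Gm5481 (0.99) and Rasgrp3 (0.98). Arnt was most like Ipmk (0.96) and Cnbp (0.94), and Egln1 like Vwa8 (0.99) and Golga4 (0.99). For Egln3 they were Mtor (0.98) and Kcnk13 (0.96), Mtor encoding the growth kinase mTOR. Bnip3 was most like Adprhl2 (0.97) and Cnppd1 (0.94), and Car9 like Trim46 (0.95) and Irf7 (0.94), Irf7 encoding an interferon regulatory factor. For Adm they were Srsf10 (0.94) and Frmd4a (0.93) and for P4ha1 Irs3 (0.96) and Klk10 (0.93).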

How the data were processed

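RNA of 8 heart samples was hybridised to Affymetrix arrays, 1 array per sample. The authors deposited log2 intensities of 41345 probe sets; they were made with RMA (background correction, quantile normalization and a summary of each probe set), and limma is named as well, both with no version, per the submitters' processing notes. Quantile normalization hides any change shared by all genes. The sources used here name no array batch and no genome build for the array.

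In the platform annotation 23521 probe sets had 1 symbol, 1814 had several and 16010 had none. Of those with 1 symbol, 23328 took the symbol of the RefSeq gene table (GRCm38.p6) by Entrez identifier. Genes below the 40th percentile of probe set means (3.80) were not tested. Groups were compared with limma 3.58.1 (lmFit, eBayes) in R 4.3.3, with Benjamini-Hochberg adjustment over all 15086 genes and a threshold of 0.05, and single genes also by a two-sided exact permutation test with 70 assignments (smallest p 0.0286). The fit was tested on simulated arrays with known changes, and the correlation step on an exact straight line with a known result. Exact correlation tests used all 40320 pairings.

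The members, lists, naming rule and alternatives were chosen with earlier results of these data known. Up to 4 genes per pathway list with the smallest p are named, with others marked as chosen after their values were seen; Hif1an, Arnt2, Cul2 and Cited4 come from that rule, and Egln2, Vhl, Crebbp, Ep300, Cited1 and Cited2 were added for their roles. Alternatives were the filter, normalization, probe set choice, variance model, array weights, a replicate block and leaving out hearts. Hif1a was to be compared with 9 members, and Ankrd37 had no value, which left 8.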

Additional observations from a re-analysis of the deposited data

How the results depend on the processing

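With 4 hearts per group, all 17 alternatives gave 0 genes and 0 members past the adjusted threshold. Genes at an unadjusted p under 0.05 numbered 1697, between 987 and 2390 with single hearts left out and 617 without knockout replicates 1 and 4 together. The labels do not say whether the replicate numbers pair the hearts. Same-numbered hearts had correlations of their deviations from -0.025 to 0.36, and 2 of 4 knockout hearts correlated best with their own number. With so few hearts these values cannot decide whether the numbers mark pairs. A replicate block gave 0 calls and 2177 genes at an unadjusted p under 0.05. With this block the smallest limma adjusted p over all genes was 0.125, against 0.277 in the main fit. For Egln1 the limma adjusted p was 0.191 with the block, against 0.421 in the main fit. Of 152 recomputed differences 7 changed sign. Arnt was 0.015 without knockout replicate 1. P4ha1 was -0.025, -0.060, -0.0020 and -0.036 without knockout replicates 3 and 4 and control replicates 3 and 4 in turn. Without knockout replicates 1 and 4 together P4ha1 was -0.031 and Hif1a -0.018. The causes were not tested. With single hearts left out, the differences ran over 0.053 to 0.25 (Hif1a), -0.20 to -0.060 (Epas1), -0.063 to 0.015 (Arnt), -0.38 to -0.25 (Egln1), -0.25 to -0.052 (Egln3), 0.076 to 0.20 (Bnip3), 0.18 to 0.31 (Car9), -0.33 to -0.17 (Adm) and -0.060 to 0.062 (P4ha1). Car9 did not reach the filter at the 60th percentile and has no value there. The unadjusted limma p of Car9, 0.042 in the main fit, ran from 0.018 without control replicate 2 to 0.126 without control replicate 4. It was 0.058 with quantile normalization again, so whether Car9 was under 0.05 before adjustment depended on the setting. Egln1 had an unadjusted limma p of 0.065 without knockout replicates 1 and 4 together. Signals of Car9 and Arnt2 near the filter limit what their differences can show.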
